A study of Homo sapiens with 26 samples.

Results

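The genes described here are the WNT ligands, the Frizzled (FZD) receptors, the secreted SFRP and DKK antagonists, and 9 named genes that act beside them (LRP5, LRP6, RNF43, ZNRF3, AXIN2, LGR4, LGR5, WIF1 and PORCN). They were chosen by symbol, as protein-coding genes named WNT, FZD, SFRP or DKK with a number plus these 9. All 46 genes chosen this way were found in the table of 41078 genes, and the naming rule itself uses no measured value, although it was set with earlier results of these data known. By role they comprise 19 ligands, 10 FZD receptors, 4 Dickkopf proteins, 5 SFRP or WIF1 genes, 2 co-receptors, 2 R-spondin receptors, 2 ubiquitin ligases, PORCN and AXIN2.

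The deposited data hold a single mRNA library from each of 26 single cell-derived cell lines (SCDCLs), 12 labelled BxPC3 and 14 labelled Panc-1, which are both established lines of pancreatic ductal adenocarcinoma. Each SCDCL grew out of 1 cell of a parental culture, so SCDCLs of the same parental line are clones and not independent tumours. The label is the only record of the parental line, and values given below go against it in many libraries. The labels name gemcitabine as the treatment of all 26 libraries, whereas the methods of the study describe gemcitabine only for separate viability assays. The libraries were divided by the transcript abundance (TPM, the share of transcripts scaled to a fixed total, which takes gene length into account) of SMAD4, which encodes a transducer of TGF-beta signals and is not among the 46 genes. SMAD4 was at most 0.0440 TPM in 12 libraries, called SMAD4-low here, and lay between 28.1 and 52.2 TPM in the other 14, called SMAD4-expressing.

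This division cut across the labels. Of the 12 libraries labelled BxPC3, a line known to have lost SMAD4, 7 were SMAD4-expressing and 5 SMAD4-low. Of the 14 labelled Panc-1, 7 were SMAD4-low and 7 SMAD4-expressing. SMAD4 thus went against the label of 14 libraries, none of which was moved. The SMAD4-low and SMAD4-expressing sets held 12 and 14 libraries, the same numbers as the BxPC3 and Panc-1 labels. The calls between the sets were also made within each label alone. Those fits use parts of the same libraries. As SMAD4 goes against many labels, a difference within a label is not shown to be a difference within a parental line. Totals ranged from 27035724 to 34945608 estimated counts and did not separate the sets. Summed over 6 mesenchymal markers (VIM, CDH2, ZEB1, ZEB2, FN1 and SPARC), abundance was 13.43 to 132 TPM in the SMAD4-low and 3131 to 4575 TPM in the SMAD4-expressing libraries, although FN1 and ZEB2 did not follow that order. The 8 ductal epithelial markers summed to 4051 to 8154 TPM and to 2163 to 8516 TPM, and CDH1, EPCAM and KRT7 were far higher in the SMAD4-low set, whereas KRT8 and KRT18 were higher in most SMAD4-expressing libraries. Markers of other cell types were read as lists too. The 6 fibroblast markers summed to 14.35 to 42.2 TPM in the SMAD4-low libraries, mostly from PDGFRA and COL1A1. In the SMAD4-expressing libraries they summed to 3.16 to 39.8 TPM, mostly from COL1A1, with PDGFRA at most 0.713 TPM. The 5 immune markers summed to 5.37 to 49.9 TPM and 44.5 to 141.1 TPM, nearly all from CD68 and CD14, and MS4A1 was at 0 in every library while PTPRC and CD3E stayed under 1 TPM. The 4 endothelial markers summed to 3.16 to 16.97 TPM in the SMAD4-low libraries, mostly from CDH5 and PECAM1. In the SMAD4-expressing libraries they summed to 0.325 to 5.39 TPM, mostly from PECAM1, with CDH5 at most 0.0427 TPM. VWF and KDR stayed under 1 TPM. The part of these other differences between the sets in the results below was not tested.

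WNT proteins are secreted lipid-modified ligands. PORCN adds the lipid, FZD receptors bind it, and LRP5 or LRP6 joins the complex to stabilise beta-catenin in the canonical branch of the pathway. WNT5A, WNT5B and WNT11 are known mainly for signals that do not use beta-catenin. SFRP proteins and WIF1 bind ligands outside the cell, and DKK1, DKK2 and DKK4 bind LRP5 and LRP6. RNF43 and ZNRF3 remove FZD receptors from the surface unless an R-spondin holds them with LGR4 or LGR5, and AXIN2 is a feedback target of beta-catenin and TCF/LEF factors. In pancreatic cancer, lines with inactive RNF43 are known to depend on WNT secretion.

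Of the 46 genes, 30 had a median of at least 1 TPM in at least one set, 22 in the SMAD4-low set, 26 in the SMAD4-expressing set and 18 in both. Between the sets, 11 of the 46 were higher and 9 lower in the SMAD4-low libraries, 12 did not pass the test and 14 had too few counts to be tested (edgeR's quasi-likelihood test, Benjamini-Hochberg adjusted p under 0.05 over all genes and more than 2-fold). The background was high, since 39% of all 16008 genes tested were called, 20% higher and 19% lower. The like base among the members is the 32 that were tested, of which 20 were called. Of the 20 calls, 17 were made in the same direction within the BxPC3-labelled and within the Panc-1-labelled libraries alone, where the background was 39.3% and 38.5%. The exceptions were FZD5, WNT3 and WNT5A, which were not called among the BxPC3-labelled libraries. Calls within a label rest on parts of the same libraries and are not independent repeats. At any fold, 76.7% of all genes tested passed the adjusted p, so a small adjusted p was the rule in this comparison. The size of a difference is hence given first below, as log2 of SMAD4-low over SMAD4-expressing with its standard error (SE). The ranges of TPM did not overlap for 9 of the 30 genes with a median of at least 1 TPM, against 31% of all such genes. Within the BxPC3 label alone 14 genes and within the Panc-1 label alone 12 genes did not overlap, beside a background of 42.1% and 43.3%. Those percentages are over all genes with a median of at least 1 TPM in a set of that label. The matching number of members is not given here, so these counts cannot be read against them. Over all libraries, FZD3, FZD6, FZD8 and WNT7A lay wholly higher in the SMAD4-low libraries and DKK3, SFRP1, FZD7, FZD9 and WNT5B wholly lower.

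Start windows are shown for the genes with the widest gaps among those with a window in the reference used here. DKK1 is added as the most abundant of all 46. Each window holds 300 bases, from 250 before to 50 after the transcription start (RefSeq, GRCh38.p14), read 5′ to 3′ on the strand of the gene. DKK3 and SFRP1 had no window in that reference. Of the 46 genes, 30 had such a window, 35 windows in all. WNT7A (minus strand) is shown at chr3:13880022-13880321, DKK1 (plus) at chr10:52314031-52314330 and FZD9 (plus) at chr7:73433528-73433827. WNT5B (plus) has a pair of listed starts, the first at chr12:1616806-1617105 and the other at chr12:1628981-1629280. Capitals mark CTTTGA, a core of the TCF/LEF motif, or its reverse complement TCAAAG.
WNT7A: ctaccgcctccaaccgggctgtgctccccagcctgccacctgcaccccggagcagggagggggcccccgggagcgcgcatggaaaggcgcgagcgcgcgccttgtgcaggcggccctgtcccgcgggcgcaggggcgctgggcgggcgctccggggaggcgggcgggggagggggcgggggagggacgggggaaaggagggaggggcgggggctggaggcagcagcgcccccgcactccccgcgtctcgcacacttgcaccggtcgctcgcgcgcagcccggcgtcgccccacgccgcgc
WNT5B, first start: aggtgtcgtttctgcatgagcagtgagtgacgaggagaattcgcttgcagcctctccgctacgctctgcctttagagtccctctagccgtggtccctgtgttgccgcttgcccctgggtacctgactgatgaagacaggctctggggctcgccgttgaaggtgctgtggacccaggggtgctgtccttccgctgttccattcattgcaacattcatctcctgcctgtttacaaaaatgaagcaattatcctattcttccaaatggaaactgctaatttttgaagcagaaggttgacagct
WNT5B, other start: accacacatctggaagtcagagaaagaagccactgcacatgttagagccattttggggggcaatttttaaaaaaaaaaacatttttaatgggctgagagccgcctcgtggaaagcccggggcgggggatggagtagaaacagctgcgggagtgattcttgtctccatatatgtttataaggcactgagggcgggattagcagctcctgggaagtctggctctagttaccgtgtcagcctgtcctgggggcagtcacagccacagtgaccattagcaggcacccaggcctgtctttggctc
FZD9: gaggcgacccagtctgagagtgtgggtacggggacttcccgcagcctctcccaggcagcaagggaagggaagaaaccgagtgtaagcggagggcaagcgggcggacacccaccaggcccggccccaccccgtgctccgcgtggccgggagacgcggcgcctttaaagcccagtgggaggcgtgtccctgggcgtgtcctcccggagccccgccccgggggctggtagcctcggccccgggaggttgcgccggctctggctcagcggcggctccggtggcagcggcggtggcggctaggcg
DKK1: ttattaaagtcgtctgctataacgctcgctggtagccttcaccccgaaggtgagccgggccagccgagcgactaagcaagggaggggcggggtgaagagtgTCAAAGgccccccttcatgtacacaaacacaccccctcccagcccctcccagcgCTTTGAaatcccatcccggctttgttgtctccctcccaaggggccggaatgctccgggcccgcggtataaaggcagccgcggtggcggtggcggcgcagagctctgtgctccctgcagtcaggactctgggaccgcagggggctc

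The DKK1 window held the motif once on each strand. Among the 35 windows, 2 held it, that of DKK1 and one of PORCN, against 12.9% of all 35116 windows in the table. The windows also differed in CpG content, with a median of 14 CpG in all windows. WNT7A had 40 CpG and FZD9 had 31, more than 92.4% and 79.3% of all windows, whereas the windows of WNT5B had 10 and 7. These letters describe the windows only, since neither methylation nor factor binding was measured.

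Among the 19 ligands, the SMAD4-low libraries carried WNT7A and the SMAD4-expressing libraries WNT5B. WNT7A (ENSG00000154764, GRCh38, chromosome 3, 13816258 to 13880071), a ligand of epithelia and of the nervous system, was at 15.54, 23.6 and 35.8 TPM (lowest, median and highest) in the 12 SMAD4-low libraries. In the 14 SMAD4-expressing libraries the same values were 0, 0.0280 and 0.192 TPM. The sets were far apart, with a log2 difference of 9.12 (SE 0.361, adjusted p = 8.1e-19), 9.54 within the BxPC3 and 8.80 within the Panc-1 label. As each library is made from a whole culture, fewer expressing cells and less RNA per cell cannot be told apart. WNT5B (ENSG00000111186, chromosome 12, 1529891 to 1647212) had the opposite pattern, at 0.0325, 0.101 and 0.359 TPM in the SMAD4-low and 24.6, 75.8 and 182 TPM in the SMAD4-expressing libraries. No SMAD4-low library came near the others (log2 difference -9.28, SE 0.413, edgeR adjusted p = 1.21e-17), with -9.53 within the BxPC3 and -8.85 within the Panc-1 label. WNT5A, the paralog of WNT5B, had a median under 1 TPM in both sets, reached 6.46 TPM in library 11, labelled Panc-1, and was lower in the SMAD4-low libraries (-3.10, SE 0.697, adjusted p = 0.000238). It is named here although its levels are below the limit for giving values, and its difference was not called among the BxPC3-labelled libraries (-1.32, adjusted p = 0.138).

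**Figure D1:**
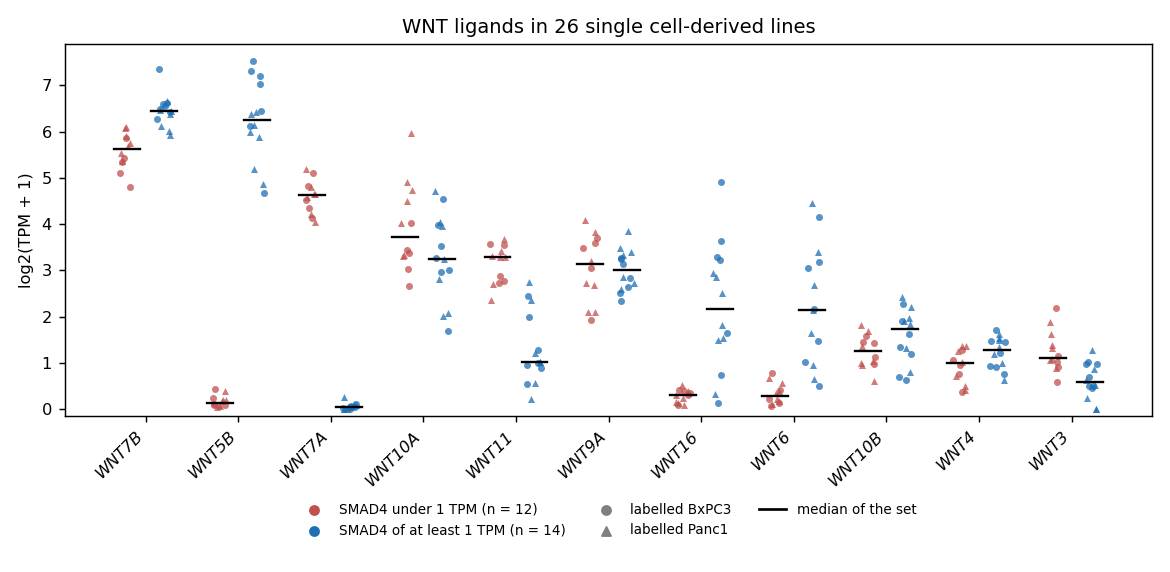
Abundance of the 11 WNT ligands with a median of at least 1 TPM in a set, as log2(TPM + 1), in the 12 SMAD4-low (red) and 14 SMAD4-expressing (blue) libraries. Each point is a library, circles are labelled BxPC3 and triangles Panc-1, and bars are medians. WNT7A and WNT5B separate without overlap, whereas WNT10A, WNT9A, WNT10B and WNT4 overlap.

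WNT7B (ENSG00000188064, chromosome 22, 45920366 to 45977162), a canonical ligand, was the most abundant ligand in both sets. It was at 26.9, 48.0 and 67.7 TPM in the SMAD4-low and 60.2, 86.2 and 163 TPM in the SMAD4-expressing libraries. The ranges met at their edges, with 12 of the 14 SMAD4-expressing libraries above every SMAD4-low one, and the difference stayed under 2-fold (-0.85, SE 0.142, edgeR adjusted p = 4.68e-06). It was larger among the BxPC3-labelled libraries (-1.32, called) than among the Panc-1-labelled ones (-0.48). That contrast, tested as an interaction of label and set, had an unadjusted p of 0.00228 and an edgeR adjusted p of 0.562. WNT7B was the top ligand in 12 of 12 SMAD4-low and 10 of 14 SMAD4-expressing libraries, and WNT5B was the top in the other 4. As a share of all ligand TPM in a library, WNT7B had a median of 42.0% and 45.2% in the SMAD4-low and SMAD4-expressing set. What differed was the ligand beside it, WNT7A at a median of 22.7% in the SMAD4-low and WNT5B at 38.11% in the SMAD4-expressing set.

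**Figure D2:**
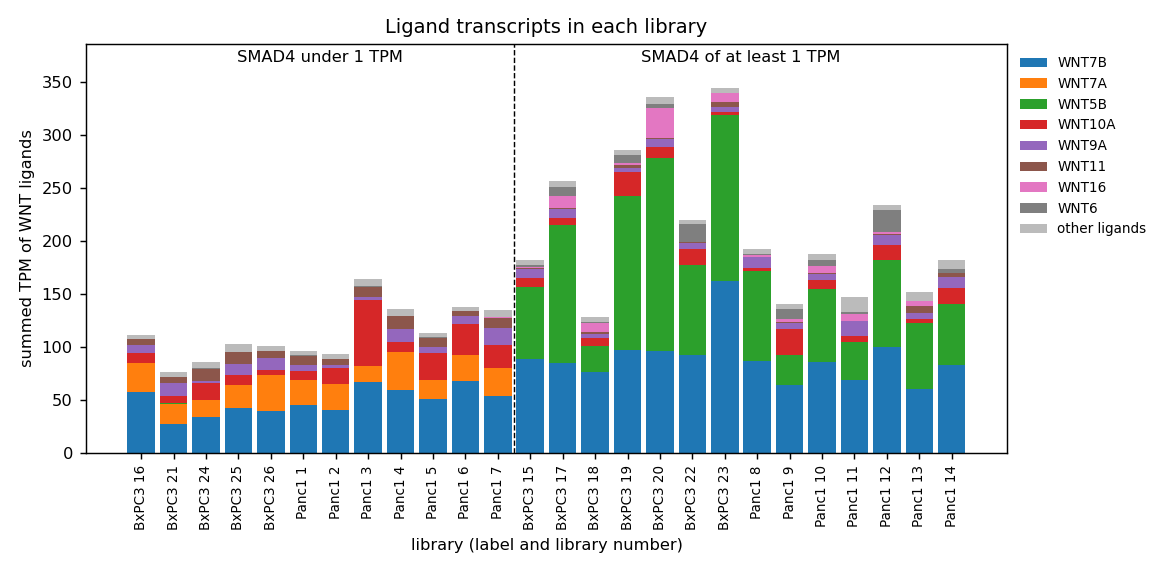
Summed TPM of all 19 WNT ligands in each library, stacked by ligand, with SMAD4-low libraries left of the dashed line. Sums run from 76.2 to 164 TPM on the left and from 128 to 345 TPM on the right, and WNT7A (orange) appears on the left only and WNT5B (green) on the right only, apart from traces.

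The sum over all ligands was 76.2, 107 and 164 TPM in the SMAD4-low and 128, 190 and 345 TPM in the SMAD4-expressing libraries, so the ranges overlapped. WNT16 and WNT6 were nearly confined to the SMAD4-expressing set but varied widely in it. WNT16, a ligand known from bone and skin, ran at 0.0682, 0.229 and 0.426 TPM against 0.0927, 3.63 and 28.9 TPM. In 12 of 14 SMAD4-expressing libraries it was above every SMAD4-low library (-4.74, SE 0.656, edgeR adjusted p = 2.23e-07). WNT6 ran at 0.0457, 0.217 and 0.721 TPM against 0.413, 3.43 and 20.8 TPM, again with 12 of 14 above (-4.38, SE 0.613, edgeR adjusted p = 2.69e-07). Within the BxPC3 and Panc-1 labels the differences were -5.07 and -4.08 for WNT16 and -4.45 and -4.37 for WNT6. The highest WNT16 was in library 20, labelled BxPC3, where the next library had 11.33 TPM, and the highest WNT6 was in library 12, labelled Panc-1.

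WNT11 and WNT3 were called higher in the SMAD4-low libraries, on weaker ground. WNT11 was at 4.11, 8.76 and 11.8 TPM against 0.158, 1.02 and 5.74 TPM (2.15, SE 0.372, edgeR adjusted p = 7.72e-06). The call was lost with another form of the counts, and which of their properties mattered was not tested. In the counts of kallisto's repeat estimates, which are not length-scaled, WNT11 had a median of 57.9 counts in the SMAD4-low and 22.8 counts in the SMAD4-expressing libraries, and the difference was 0.48 (edgeR adjusted p = 0.253), an alternative chosen after the data had been seen. WNT3 was low throughout, at 0.506, 1.15 and 3.54 TPM against 0, 0.491 and 1.42 TPM (1.37, SE 0.452, edgeR adjusted p = 0.00768), and within the BxPC3 label its adjusted p was 0.0542. In the SMAD4-low set its spread among libraries was only 1.295 times the error of quantification described below.

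For WNT10A, WNT9A, WNT10B and WNT4 the sets overlapped and no difference over 2-fold passed the test. WNT10A was at 5.34, 12.53 and 62.0 TPM against 2.21, 8.51 and 25.24 TPM, with library 3, labelled Panc-1, highest. Its difference of 0.77 (SE 0.382, edgeR adjusted p = 0.0684) was -0.18 within the BxPC3 label. WNT9A had medians of 7.75 and 7.04 TPM and the smallest difference of the ligands tested (0.17, SE 0.251, edgeR adjusted p = 0.541). WNT10B had medians of 1.38 and 2.33 TPM (-0.59, SE 0.299) and WNT4 0.982 and 1.42 TPM (-0.58, SE 0.261). WNT2B, the last ligand tested, had medians of 0.400 and 0.641 TPM. The other ligands, WNT1, WNT2, WNT3A, WNT8A, WNT8B and WNT9B, were too low to be tested. Of these, WNT8A had 0 counts in all SMAD4-low libraries and 53 summed counts in the others. That allows a level at least 15.7-fold higher in the SMAD4-expressing set, taking a floor of 3 counts over the set. Floors and count intervals here and below cover counting error only.

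Some WNT genes lie side by side in the genome, in 4 pairs, but both neighbours could be tested in 1 pair only. WNT6 and WNT10A, 6618 bases apart on chromosome 2 and on the same strand, were lower and not called. WNT3 and WNT9B, 46 bases apart on chromosome 17 and on opposite strands, were called higher and too low to be tested. WNT10B was not called while WNT1, 6586 bases away on chromosome 12, was too low to be tested. The same held for WNT9A and WNT3A, 59065 bases apart on chromosome 1.

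PORCN (ENSG00000102312, chromosome X, 48508959 to 48520814), the acyltransferase that all WNT ligands are thought to need for release, was at 12.33, 27.3 and 65.4 TPM in the SMAD4-low and 5.19, 8.70 and 17.299 TPM in the SMAD4-expressing libraries. In 10 of 12 SMAD4-low libraries it was above every SMAD4-expressing one. The difference was 1.67 (SE 0.227, edgeR adjusted p = 1.59e-07), 1.96 and 1.44 within the BxPC3 and Panc-1 labels.

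Of the 10 FZD receptors, 6 were higher and 2 lower in the SMAD4-low libraries, FZD2 was not called and FZD10 was too low to be tested. Of all genes tested, 20% were higher and 19% lower. FZD6, a receptor known mostly from planar polarity, had the highest median of the receptors in the SMAD4-low set and stood just behind FZD7 in the SMAD4-expressing set. It was at 99.4, 125 and 178 TPM in the SMAD4-low against 15.6, 38.7 and 64.9 TPM in the SMAD4-expressing libraries (1.74, SE 0.172, edgeR adjusted p = 3.68e-10). FZD7 (ENSG00000155760, chromosome 2, 202033855 to 202038441), a canonical receptor common in stem and progenitor cells, ran the other way, at 2.55, 4.35 and 6.34 TPM against 25.18, 39.4 and 57.5 TPM (-3.25, SE 0.190, edgeR adjusted p = 5.38e-15). Neither receptor overlapped between the sets. Within the BxPC3 and Panc-1 labels the differences were 1.82 and 1.72 for FZD6 and -3.11 and -3.34 for FZD7. The top receptor was FZD6 in all 12 SMAD4-low libraries, with 64.7% of all FZD transcripts in the median library. In the SMAD4-expressing libraries it was FZD6 in 5, FZD7 in 5 and FZD2 in 4. FZD2 itself overlapped almost fully, at 18.6, 24.18 and 64.7 TPM against 15.34, 32.8 and 57.5 TPM (-0.28, SE 0.192, edgeR adjusted p = 0.186).

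**Figure D3:**
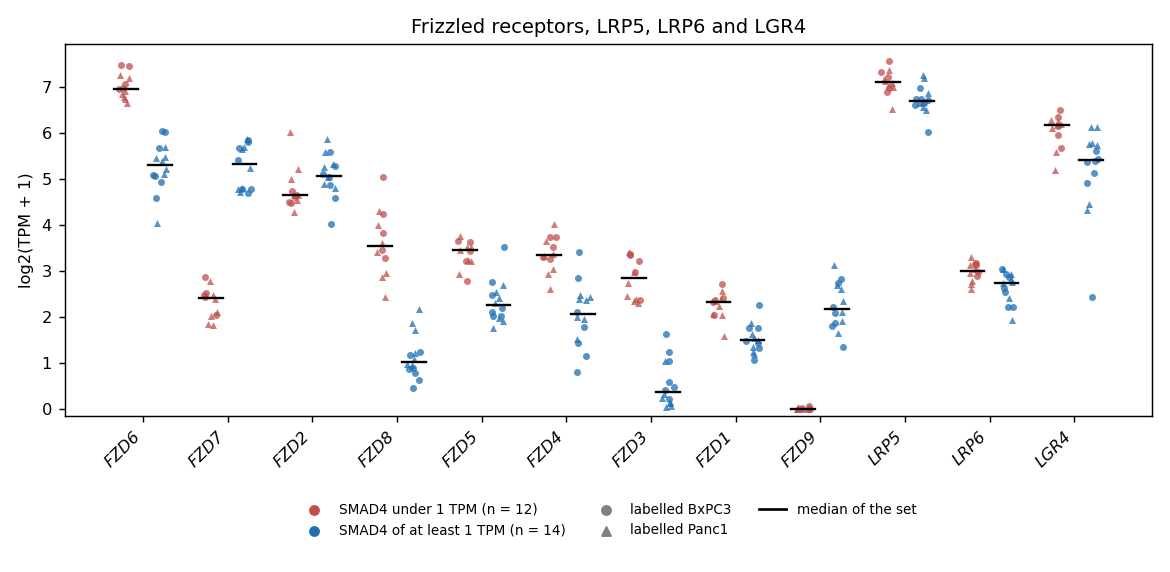
Abundance of the FZD receptors with a median of at least 1 TPM in a set, of LRP5, LRP6 and of LGR4, as log2(TPM + 1), drawn as for the ligands. FZD6, FZD8 and FZD3 are higher in all 12 SMAD4-low libraries (red) than in any SMAD4-expressing one (blue), and FZD7 and FZD9 are lower.

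FZD8 and FZD3 also lay wholly higher in the SMAD4-low set. FZD8 (ENSG00000177283, chromosome 10, 35638247 to 35642296) was at 4.46, 10.6 and 32.1 TPM against 0.368, 1.04 and 3.55 TPM (3.304, SE 0.333, edgeR adjusted p = 5.93e-10). Its difference was 4.295 within the BxPC3 and 2.56 within the Panc-1 label, and the interaction had an unadjusted p of 0.00354 and an edgeR adjusted p of 0.563. FZD3 was at 3.95, 6.27 and 9.72 TPM against 0.0326, 0.294 and 2.09 TPM (3.56, SE 0.482, edgeR adjusted p = 1.46e-07), with 3.16 and 4.52 within the BxPC3 and Panc-1 labels. FZD4, FZD5 and FZD1 were higher by a smaller margin and with overlap. FZD4 had medians of 9.27 and 3.17 TPM (1.47, SE 0.270) and FZD5 of 9.98 and 3.79 TPM (1.13, SE 0.178). FZD5, the receptor on which WNT-dependent pancreatic cancer lines are known to rely, differed by 0.91 within the BxPC3 label. FZD1 had medians of 4.06 and 1.82 TPM and stood at the fold threshold (1.00, SE 0.160, edgeR adjusted p = 2.23e-06). Leaving out any of 15 of the 26 libraries, 1 at a time, brought it below the threshold, down to 0.94 without library 16, labelled BxPC3.

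FZD9 (ENSG00000188763, chromosome 7, 73433778 to 73436120) was all but absent from the SMAD4-low libraries, at 0, 0 and 0.0402 TPM with 7 summed counts, and was at 1.57, 3.51 and 7.79 TPM in the SMAD4-expressing libraries with 3037 counts. No library overlapped. Adjusted for library totals, the summed counts differed 385-fold (95% exact binomial interval 187 to 959), and FZD9 was called lower within each label. FZD10 had at most 0.0606 TPM anywhere. Over all 10 receptors, the sum was 153, 202 and 271 TPM in the SMAD4-low and 84.1, 125 and 188 TPM in the SMAD4-expressing libraries.

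The co-receptors differed little. LRP5, with medians of 139 and 103 TPM, was far more abundant than LRP6, with 7.08 and 5.74 TPM, in both sets. Both differences passed the adjusted p but were well under 2-fold (LRP5 0.39, SE 0.0994, edgeR adjusted p = 0.000928, and LRP6 0.39, SE 0.120, edgeR adjusted p = 0.00436). LGR4, the R-spondin receptor of many epithelia, was at 35.8, 71.1 and 90.6 TPM against 4.39, 41.9 and 69.7 TPM (0.70, SE 0.244, edgeR adjusted p = 0.0113). It was called higher among the BxPC3-labelled libraries only (1.02, against 0.45 with an adjusted p of 0.157 in the Panc-1-labelled ones). Library 22, labelled BxPC3, had by far the lowest LGR4, at 4.39 TPM. LGR5, a stem cell marker of the intestine, reached 1.03 TPM in library 20, labelled BxPC3, and had medians of 0.0194 and 0.222 TPM.

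The ubiquitin ligases did not move as a pair. RNF43 (ENSG00000108375, chromosome 17, 58353676 to 58417595) was at 1.25, 3.39 and 13.09 TPM in the SMAD4-low and 0.0361, 0.416 and 1.84 TPM in the SMAD4-expressing libraries. In 9 of 12 SMAD4-low libraries it was above every SMAD4-expressing one (2.69, SE 0.548, edgeR adjusted p = 7.25e-05), and the differences within the BxPC3 and Panc-1 labels were 2.66 and 2.89. ZNRF3, which has the same function, was at 5.11, 6.497 and 8.90 TPM against 3.53, 5.88 and 8.29 TPM, nearly full overlap (0.23, SE 0.108, edgeR adjusted p = 0.0588).

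None of the secreted antagonists was called higher in the SMAD4-low libraries, 2 were lower, DKK1 did not reach the fold threshold and 6 were too low to be tested. The shares over all genes tested were 20% higher and 19% lower. DKK1 (ENSG00000107984, chromosome 10, 52314281 to 52318042), whose window with the motif is printed above, was the most abundant of the 46 genes in both sets. It was at 231, 411 and 622 TPM in the SMAD4-low and 383, 812 and 1436 TPM in the SMAD4-expressing libraries, with 10 of 14 of the latter above every SMAD4-low library. The difference was just under 2-fold (-0.94, SE 0.191, edgeR adjusted p = 6.3e-05). It was called lower within the BxPC3 label (-1.003, adjusted p = 0.0098) and when library 6, labelled Panc-1 (-1.05), or library 19, labelled BxPC3 (-1.001), was left out. DKK3 (ENSG00000050165, chromosome 11, 11956207 to 12009769), a divergent Dickkopf protein often silenced in tumours, had 0 counts in all 12 SMAD4-low libraries. In the SMAD4-expressing libraries it was at 51.6, 94.7 and 153 TPM, at least 16524-fold higher over the floor of 3 counts in the set. SFRP1, which binds WNT ligands, was likewise at 0 in all 12 and at 16.397, 31.3 and 128 TPM in the others, at least 14995-fold higher over the same floor. Both differences were called within each label.

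**Figure D4:**
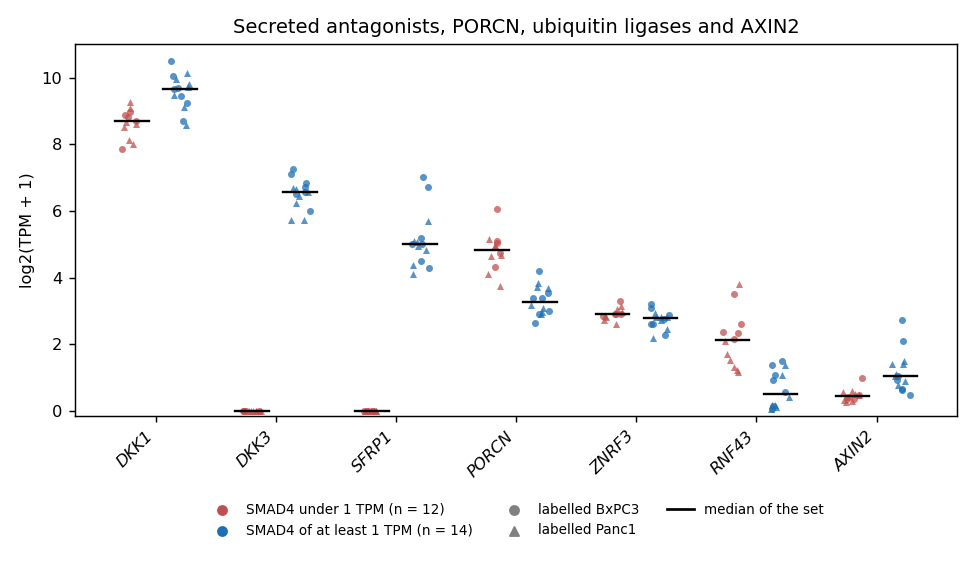
Abundance of DKK1, DKK3, SFRP1, PORCN, ZNRF3, RNF43 and AXIN2 as log2(TPM + 1), drawn as for the ligands. DKK3 and SFRP1 are at 0 in all 12 SMAD4-low libraries (red), while DKK1 is high in both sets and ZNRF3 overlaps.

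DKK2 and DKK4 showed the reverse at very low levels. DKK2 reached 0.580 TPM and DKK4 1.92 TPM in the SMAD4-low libraries, with 98 and 138 summed counts, and both had 0 counts in all 14 SMAD4-expressing libraries. Over a floor of 3 counts in the set they were at least 36.8-fold and 51.8-fold higher. SFRP2, SFRP4, SFRP5 and WIF1 reached at most 0.696 TPM in any library. As a result, SFRP and WIF1 transcripts summed to at most 0.864 TPM in any SMAD4-low library and to at least 16.495 TPM in any SMAD4-expressing one. Dickkopf transcripts summed to 232, 412 and 622 TPM in the SMAD4-low and 478, 900 and 1498 TPM in the SMAD4-expressing libraries.

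AXIN2 (ENSG00000168646, chromosome 17, 65528563 to 65561648) was low in all libraries and lower in the SMAD4-low set. It was at 0.214, 0.365 and 0.967 TPM against 0.401, 1.054 and 5.61 TPM, with 8 of 14 SMAD4-expressing libraries above every SMAD4-low one (-1.92, SE 0.357, edgeR adjusted p = 2.17e-05). Within the BxPC3 and Panc-1 labels the differences were -2.003 and -1.77. The highest values were 5.61 TPM in library 23 and 3.295 TPM in library 15, both labelled BxPC3 and SMAD4-expressing. Across the 14 SMAD4-expressing libraries, the members most like AXIN2 by Pearson's r of log2(TPM + 1) were FZD1 (r = 0.68, Spearman's rho = 0.42) and WNT4 (r = 0.62, rho = 0.59). Without the 2 libraries farthest from the median of AXIN2, FZD1 fell to 0.19 and WNT4 to 0.49. By r over all 14, FZD6 was the least like it (r = -0.57, rho = -0.75, and -0.68 without those libraries). Without those libraries WNT7B was lower than FZD6, at -0.85 (r = 0.33 with them). So was WNT5B, at -0.75 (r = -0.10 with them). Across the 12 SMAD4-low libraries, DKK1 (r = -0.78, rho = -0.76) and WNT9A (r = -0.74, rho = -0.85) had the most negative values, -0.63 and -0.66 without the 2 farthest libraries. The highest r were those of FZD5 (r = 0.52, rho = 0.66) and LGR4 (r = 0.45, rho = 0.57), 0.51 and 0.56 without the 2 farthest. These are descriptions of 47 correlations, for 25 members in the larger set and 22 in the smaller, and AXIN2 rests on few counts in both. Each r was placed among all genes with a median of at least 1 TPM in the set. In the SMAD4-expressing set, 99.3% of them had a lower r than FZD1, 98.4% than WNT4 and 1.15% than FZD6. In the SMAD4-low set the shares were 91.3% for FZD5, 84.6% for LGR4, 0.177% for WNT9A and 0.0355% for DKK1.

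The rest of the pathway was read from a list of 79 genes outside the 46. Of these, 25 were higher and 13 lower in the SMAD4-low libraries, 29 were not called and 12 were too low to be tested, beside the 20% higher and 19% lower of all genes tested. The counts by role below are small, and nothing is read from them against this background. Of the 8 genes of ligand release, 2 were higher, 2 lower and 4 too low to be tested. WLS, which carries WNT ligands to the surface, was higher at a median of 102 against 29.7 TPM (1.37, SE 0.401). So was TRABD2A, at 3.98 against 0.944 TPM (2.41, SE 0.364). NOTUM, which removes the lipid of WNT ligands outside the cell, was lower at 0.124 against 5.03 TPM (-5.26, SE 0.409). CTHRC1 was lower too, at 1.75 against 6.54 TPM (-2.08, SE 0.594). WLS and CTHRC1 were not called within the Panc-1 label. Of the 11 R-spondins and other receptor modulators, 4 were higher, none lower and 6 too low to be tested. KREMEN1, a receptor of Dickkopf proteins, was at a median of 17.6 against 0.617 TPM (4.49, SE 0.271), and TNFRSF19, a target and modulator of the pathway, at 9.296 against 0.175 TPM (5.16, SE 0.424).

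Of the 13 genes of non-canonical reception and planar polarity, 6 were higher and 2 lower. The 2 lower ones were ROR1 and ROR2, receptors for WNT5A and related ligands. ROR1 had medians of 4.12 and 26.16 TPM (-2.65, SE 0.188), and ROR2 was at most 0.0299 TPM in the SMAD4-low libraries against a median of 3.24 TPM. VANGL2 (1.49 against 0.00870 TPM) and CELSR2 (14.395 against 1.83 TPM), core proteins of planar polarity, were higher. Of the 19 genes of cytoplasmic transduction, 4 were higher and 3 lower, near the 39% of all genes tested that were called. GSK3B, the kinase that marks beta-catenin for destruction, was higher at a median of 34.6 against 9.68 TPM (1.82, SE 0.0909). DVL1, which relays the signal from FZD receptors, was lower at 46.3 against 106 TPM (-1.18, SE 0.0867). APC2 was lower too, with the largest log2 difference of the 19 genes (-2.90, SE 0.137). What these differences mean for the destruction of beta-catenin was not tested.

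Of the 13 nuclear factors, 5 were higher and 2 lower. TCF7 was lower (2.95 against 13.6 TPM, -2.19, SE 0.206) and LEF1 higher (4.19 against 0.405 TPM, 1.65, SE 0.547), although both encode TCF/LEF factors. LEF1 was not called within the BxPC3 label. Feedback and target genes were divided as well, with 4 higher and 4 lower of 15. SP5 (0.195 against 1.64 TPM, -2.83, SE 0.665) and EPHB2 (15.46 against 79.5 TPM, -2.45, SE 0.157) were lower, although SP5 was not called within the Panc-1 label. EPHB3 (3.995 against 0.521 TPM, 2.75, SE 0.268) was higher, and ASCL2, a stem cell factor, was at a median of 5.36 TPM in the SMAD4-low libraries and listed at 0 in all others. All fold differences given for this list passed edgeR's test with an adjusted p of at most 0.00789. CTNNB1, which encodes beta-catenin, stood at the fold threshold and was named after its values had been seen. It had medians of 218 and 102 TPM (0.998, SE 0.0897, edgeR adjusted p = 5.65e-11), was called higher within the BxPC3 label and not within the Panc-1 label, and became called when any of 9 of the 26 libraries was left out, up to 1.05 without library 3, labelled Panc-1.

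No member passed the test between the labels. Each label held libraries of both SMAD4 sets (BxPC3 7 SMAD4-expressing and 5 SMAD4-low, Panc-1 7 and 7). The tests below hence compare labels and cannot show whether the parental lines differ in these genes. Between the 14 libraries labelled Panc-1 and the 12 labelled BxPC3, 0 of the 32 members tested were called by edgeR, with 2 at an unadjusted p under 0.05 (WNT10A and WNT5A), and the background was 0% of 16008 genes, of which 367 had an unadjusted p below that limit. DESeq2 and limma also called 0 members. With the SMAD4 set as a covariate, 0 of 35 members were called by edgeR, DESeq2 or limma, against 0% of 16800 genes called by edgeR. In edgeR, 4 members had an unadjusted p under 0.05 (FZD2, FZD3, WNT5A and WNT5B), beside 1263 of the 16800 genes. WNT5B was the nearest, lower in the Panc-1-labelled libraries by a log2 difference of -0.80 (SE 0.285, edgeR adjusted p = 0.622). The interaction of label and set called 0 of 36 members with edgeR, against a background of 0% of 17456 genes. An unadjusted edgeR p under 0.05 was seen for 3 members (FZD8, WNT5A and WNT7B), beside 1357 of the 17456 genes.

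Within a set, SCDCLs differed from each other by more than the error of quantification. The standard deviation (SD) of log2(TPM + 1) was compared with the SD over 5 repeat estimates that kallisto made of a library by drawing its reads again. The ratio of the first to the second was 1.295 to 31.3 for the 22 members with a median of at least 1 TPM in the SMAD4-low set and 2.81 to 44.3 for the 26 in the SMAD4-expressing set. The repeat estimates measure counting error and the assignment of reads to transcripts. They do not cover differences between cultures, library preparations or runs, since no SCDCL was sequenced more than once. The median SD of the members was 0.39 and 0.50 in the SMAD4-low and SMAD4-expressing set, beside 0.30 and 0.29 for all genes at this level.

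**Figure D5:**
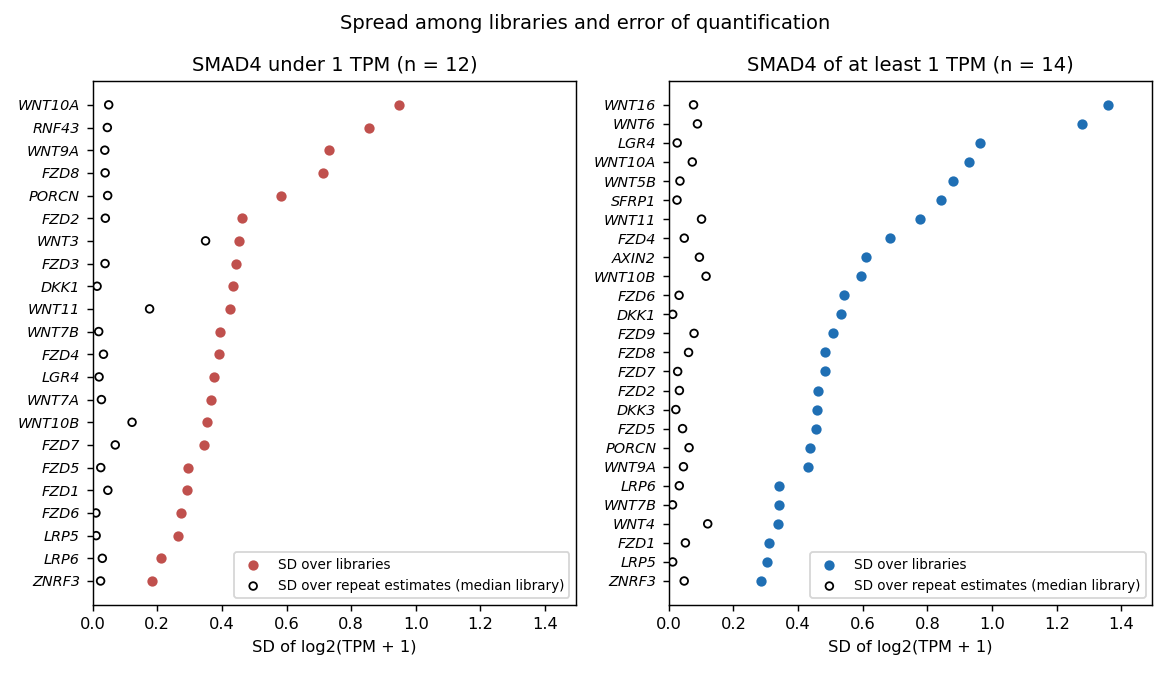
SD of log2(TPM + 1) over libraries (filled) and median SD over repeat estimates of a library (open) for members with a median of at least 1 TPM, in the SMAD4-low set (left, n = 12) and the SMAD4-expressing set (right, n = 14). WNT16 reaches an SD of 1.36 on the right and WNT10A 0.95 on the left, and every open point lies left of its filled point, nearest for WNT3 on the left.

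The members that varied most among the SMAD4-expressing SCDCLs were WNT16 (SD 1.36) and WNT6 (SD 1.28), larger than for 99.4% and 99.2% of genes. Then followed LGR4 (0.96), WNT10A (0.93), WNT5B (0.88) and SFRP1 (0.84). SFRP1 was at 128 TPM in library 18 and 105 TPM in library 23, both labelled BxPC3, and at most 51.1 TPM in the other 12. WNT5B was highest in library 20 (182 TPM) and library 23 (157 TPM) and lowest in library 18 (24.6 TPM), all labelled BxPC3. Among the SMAD4-low SCDCLs, WNT10A (SD 0.95), RNF43 (0.85), WNT9A (0.73) and FZD8 (0.71) varied most. RNF43 reached 13.09 TPM in library 4, labelled Panc-1, and 10.51 TPM in library 16, labelled BxPC3, and was at most 5.09 TPM in the other 10. At the other end, ZNRF3 had the smallest SD of the members in both sets (0.18 in the SMAD4-low and 0.29 in the SMAD4-expressing set). LRP6 came next in the SMAD4-low set (0.21) but had an SD of 0.34 in the other, larger than for 63.6% of genes.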

How the data were processed

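Messenger RNA was measured once in each of 26 SCDCLs. The authors quantified transcripts with kallisto 0.46.1 against GRCh38 (submitters' processing notes), and the deposited table gives, per gene and library, TPM and estimated counts, made from TPM and mean transcript length, plus estimated counts of repeat estimates on redrawn reads, of which the first 5 per library were used. Genes were matched to symbols with GENCODE 44, which named 36315 of 41078. The 46 members, the gene lists and the division by SMAD4 (1 TPM) were chosen with earlier results of these data known.

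Estimated counts were rounded and tested with edgeR 4.0.16 (R 4.3.3) after filterByExpr and TMM, with Benjamini-Hochberg adjustment over all genes. A gene was called where its adjusted p was under 0.05 and it differed more than 2-fold. The files held estimated counts and TPM as the design had assumed. The groups were the labelled lines and the SMAD4 sets. All 26 libraries entered each main fit. Fits within a label used only the libraries of that label, and the leave-out fits dropped a library each. The p-values measure only the spread between SCDCLs, each sequenced once. Members with a median of at least 1 TPM in a set were named with values, and of the other pathway genes at most 2 in each direction per role. Genes with at most 3 counts in every library of a set are given as count ratios. Totals of 27035724 to 34945608 limit the precision of members with few counts.

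Alternatives were DESeq2 1.42.0 and limma 3.58.1 on log2(TPM + 1) as tests, with pseudocounts of 0.1 and 5 (SMAD4 sets only), other size factors, other filters on low values, no fold threshold, each label alone, each library left out and, added after the data had been seen, means of the repeat estimates. Python 3.11.15 with numpy 2.4.6, pandas 2.3.3, scipy 1.17.1 and matplotlib 3.10.9 was used. The fits were run on simulated data in which few genes changed, equally in both directions. That simulation does not cover a comparison with as many called genes as here. Gemcitabine response and protein data were not analysed here.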

Additional observations from a re-analysis of the deposited data

How the results depend on the processing

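The counts of members called between the SMAD4 sets stayed within 1.5 times their main values under all alternatives run but one, from 9 to 15 higher and from 7 to 13 lower, the upper ends without a filter on low counts and, for the lower members, also without a fold threshold. The exception was limma on log2(TPM + 5), counted after the data had been seen, with 5 members higher and 4 lower and 11 pathway genes higher and 7 lower, where 1512 genes were called higher and 1462 lower against 3201 and 3036 of all genes in the main test. A pseudocount of 5 shrinks the fold of genes with few TPM. Leaving out each library gave 10 to 11 higher and 9 to 10 lower members, 25 to 29 pathway genes higher and 11 to 13 lower, and 9 to 10 members without overlap. The number of members without overlap was 14 among the BxPC3-labelled libraries alone and 12 among the Panc-1-labelled ones. The shares over all genes were 42.1% and 43.3%, and the counts are not read against them. Between the labelled lines, 0 members were called with and without the SMAD4 set as covariate, also under the other size factors, filters and tests, without a fold threshold and with each library left out (0 to 0), while pseudocounts of 0.1 and 5 were run between the SMAD4 sets only. Of 270 alternative values for the 30 named members, 247 kept their direction and side of the threshold, 18 were no longer called, 10 of them with a pseudocount of 5, and 3 became called among the BxPC3-labelled libraries alone (DKK1, LGR4 and WNT7B). The sign changed for WNT10A (-0.18, edgeR adjusted p = 0.721, BxPC3-labelled alone) and WNT9A (-0.067, adjusted p = 0.872, Panc-1-labelled alone), neither of which was called in any direction, and the cause was not tested. No paired analysis was possible because the labelled groups share no replicate number. With 1 library per SCDCL, differences between SCDCLs cannot be told apart from differences between cultures or library preparations.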
